A study of Mus musculus with 6 samples.

Results

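The genes described are 41 genes of fibroblast growth factor (FGF) signalling and of the feedback on its kinase ERK: ligands, receptors, adaptors, kinases, feedback inhibitors and ETS target factors. Their open chromatin was followed in definitive endoderm of mouse after treatment with dTAG13, which is meant to degrade the transcription factor OTX2. A peak belonged to the set when the gene column of the authors' deposited table named 1 of the 41 genes. This gave 209 of the 70494 peaks of that table, on 40 genes. Spry4 had no peak assigned to it. ATAC-seq, in which a transposase cuts open chromatin and tags it for sequencing, was run on 6 libraries. All came from the EpiSC line 7H, a BL6/129 hybrid in which OTX2 carries a dTAG degradation tag and EGFP. EpiSCs are cells like the epiblast before gastrulation, and definitive endoderm is the germ layer that forms the gut. In both groups the cells received 40 ng/ml Activin A and 3 uM CHIR for 16 h, then 100 ng/ml Activin A and 100 nM LDN for 24 h. For 3 libraries the cells were given dTAG13, which directs the tagged OTX2 to degradation, for 24 h starting at the primitive streak stage, and for the other 3 its solvent DMSO. Each library used 50000 live sorted cells. The OTX2-dTAG-EGFP allele is thus shared by both groups, and cells with untagged OTX2 were not analysed here. By the design text these are technical replicates, and they come from 1 line, so that the standard errors below need not hold the spread between cultures. No FGF was named among the added factors.

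FGF ligands bind receptor tyrosine kinases, which recruit the docking protein FRS2 and the exchange factor SOS and so activate Ras, the RAF and MEK kinases and ERK. ERK in turn raises the ETS factors ETV4 and ETV5 and a set of inhibitors, the Sprouty and SPRED proteins, the ERK phosphatases of the DUSP family and IL17RD, which restrain the same cascade. In the gastrulating embryo FGF8 and FGF4 act in the primitive streak, and FLRT3, a membrane protein that binds FGF receptors, is found in endoderm.

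The sequences of 9 peaks are shown: 3 that fell, 3 that rose and 3 just outside the threshold that hold the letters of an OTX site. All 9 were chosen after their values and motifs had been seen, so they are examples and not a sample. Over all 11 called FGF peaks, 6 hold at least 1 of the 10 motifs searched and 5 hold none, the latter at Fgf8, Flrt3, Spry2 and 2 peaks of Fgf12. A motif was held by 46.9% of the 209 FGF peaks, by 40.8% of all peaks and by 71.0% of all called peaks. These counts are over the whole peak, and the 10 include a control, ATTAGG, the OTX letters in reversed order. Peaks were not matched by length, which had a median of 152 bases for FGF peaks and 131 for all. All 9 sequences shown are the forward strand of build GRCm38.p6 (mm10). Capitals mark matches of the motifs searched, as exact letters on both strands. The first 3 had less signal in dTAG13. Near Fgf12, chr16:28043257-28043417 holds 2 copies of TAATCC, the reverse complement of the OTX letters GGATTA. Upstream of Frs2, chr10:117152506-117152597 holds AGATAA, the GATA letters. Upstream of Braf, chr6:39748786-39749060 holds 2 copies of AGATAA, and CCTAAT, the reverse complement of the reversed control ATTAGG.
Fgf12 distal peak: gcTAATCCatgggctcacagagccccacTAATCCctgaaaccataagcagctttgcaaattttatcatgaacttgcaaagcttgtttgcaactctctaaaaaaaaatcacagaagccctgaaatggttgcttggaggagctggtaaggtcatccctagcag
Frs2 upstream peak: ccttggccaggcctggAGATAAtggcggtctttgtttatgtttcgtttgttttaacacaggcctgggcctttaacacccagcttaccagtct
Braf upstream peak: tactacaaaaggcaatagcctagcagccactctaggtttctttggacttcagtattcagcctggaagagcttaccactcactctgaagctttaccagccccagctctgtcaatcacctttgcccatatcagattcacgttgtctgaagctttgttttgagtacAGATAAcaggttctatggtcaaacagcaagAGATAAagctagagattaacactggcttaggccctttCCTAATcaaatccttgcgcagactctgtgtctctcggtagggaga
The next 3 had more signal in dTAG13. The Spry2 promoter peak, chr14:105897254-105897489, held none of the motifs, the Il17rd intron peak, chr14:27082024-27082182, held TGAGTCA, the reverse complement of the AP1 letters TGACTCA, and the Etv5 exon peak, chr16:22411863-22411977, held the POU letters ATTTGCAT.
Spry2 promoter peak: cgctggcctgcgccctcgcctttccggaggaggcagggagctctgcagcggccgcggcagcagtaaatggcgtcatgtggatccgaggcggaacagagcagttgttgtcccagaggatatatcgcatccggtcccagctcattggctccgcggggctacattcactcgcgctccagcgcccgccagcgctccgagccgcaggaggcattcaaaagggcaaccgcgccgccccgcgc
Il17rd intron peak: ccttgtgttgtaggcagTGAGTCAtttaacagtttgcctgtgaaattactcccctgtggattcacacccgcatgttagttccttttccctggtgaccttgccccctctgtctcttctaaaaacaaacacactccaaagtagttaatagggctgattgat
Etv5 exon peak: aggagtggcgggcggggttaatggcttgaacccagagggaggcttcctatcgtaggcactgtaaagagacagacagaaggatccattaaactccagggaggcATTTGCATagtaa
The last 3, at Fgfr2 (chr7:130263901-130264008), Etv5 (chr16:22402833-22402923) and Sos1 (chr17:80522066-80522163), hold the OTX letters in 1 orientation or the other. In the Sos1 peak GGATTA overlaps the reversed control.
Fgfr2 inner promoter peak: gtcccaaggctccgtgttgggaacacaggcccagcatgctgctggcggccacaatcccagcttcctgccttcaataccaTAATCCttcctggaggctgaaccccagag
Etv5 OTX peak: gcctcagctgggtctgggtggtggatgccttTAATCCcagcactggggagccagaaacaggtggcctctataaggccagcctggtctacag
Sos1 upstream peak: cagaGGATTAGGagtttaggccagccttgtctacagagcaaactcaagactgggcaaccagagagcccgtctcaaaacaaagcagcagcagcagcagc

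A peak is described as called, or as having risen or fallen, when its deposited adjusted p was under 0.05. By the authors' deposited table, 11 of the 207 FGF peaks with an adjusted p were called, or 5.31%, beside 5.26% of the 69128 peaks tested in all. The FGF share is at the background. Of the 11, 5 peaks were lower in dTAG13 (3.79% of all peaks tested were) and 6 were higher (1.47% of all). The 5 that fell belonged to Frs2, Fgf12, Flrt3, Braf and Fgfr2, and the 6 that rose to Etv5, Il17rd, Fgf12 with 2 peaks, Fgf8 and Spry2, 9 genes together. The split of the calls depends on how fold changes are centred: with the median of each of 10 GC classes moved to 0, 1 FGF peak was lower and 11 were higher, and with the fold changes centred on peaks that both groups' lists share, 7 were lower and 4 higher. All peaks moved alike, from 2622 lower and 1016 higher as deposited to 1380 and 2254 with GC classes centred and to 3159 and 790 with the shared peaks centred. The called share with GC classes centred was 5.80% of FGF peaks and 5.26% of all. At an unadjusted p under 0.05 there were 28 lower and 17 higher FGF peaks, where 12.7% and 7.00% of all peaks passed. In these bulk libraries a change in the share of cells with an open site and a change in openness per cell cannot be told apart.

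Over all 209 FGF peaks, 116 log2 fold changes were negative, which means more signal in DMSO, and 93 were positive. The negative share was 55.5%, beside 58.2% of all peaks. With the median of all peaks moved from -0.18 to 0, the FGF median turned from -0.10 to 0.08 and 95 peaks were negative. The median log2 fold change was -0.10 with quartiles of -0.79 and 0.34 in the authors' deposited table, beside -0.18 with quartiles of -1.01 and 0.39 for all peaks. Signal is given in normalized counts, reads per peak scaled between libraries by the authors and averaged over the 6 libraries. The FGF peaks had a median of 9.61 normalized counts against 7.33 for all peaks, and 20.1% of them stayed under 5 normalized counts against 32.3% of all. Per gene they were also more numerous, with a median of 4 peaks against 2. Of the 209 peaks, 108 overlapped the authors' peak lists of both groups, 77 the DMSO list alone and 24 the dTAG13 list alone. Those shares, 51.7%, 36.8% and 11.5%, were near the 48.2%, 40.1% and 11.8% of all peaks.

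**Figure D1:**
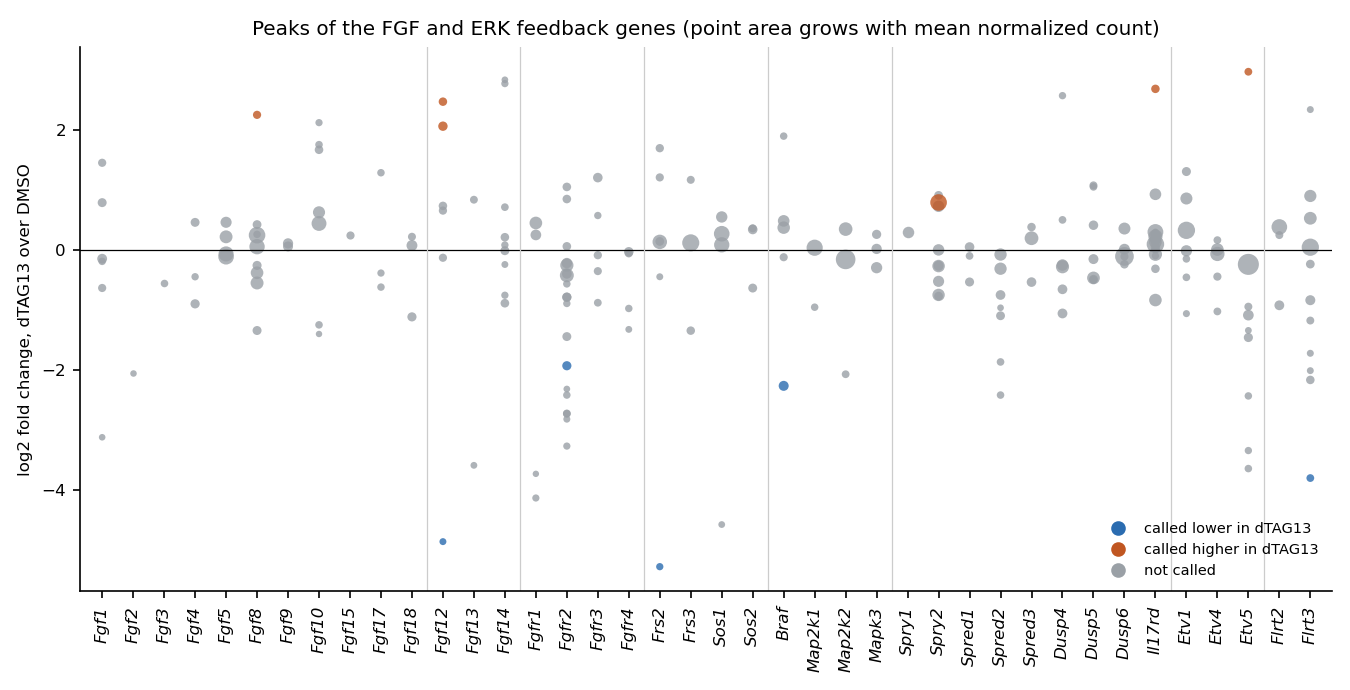
Log2 fold change (dTAG13 over DMSO, vertical axis) of each of the 209 peaks, by gene, with point area growing with the mean normalized count; blue peaks were called lower, orange peaks higher and grey peaks were not called. The 5 blue and 6 orange points are spread over 9 genes, and the largest points lie near 0.

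The labelled cell type was checked by open promoters, which are no measure of expression. All 10 endoderm markers examined, Sox17, Foxa2, Foxa1, Cxcr4, Gata4, Gata6, Eomes, Cer1, Hhex and Gsc, had a promoter peak, of 13.6 to 58.1 normalized counts. Promoter peaks were also present at 4 of 5 epiblast markers (15.9 to 47.9 normalized counts), 5 of 6 mesoderm or streak markers (4.31 to 62.4) and 4 of 4 neural markers (5.88 to 26.7), so that these markers do not separate the germ layers by promoter opening. Of the 53 peaks of the endoderm markers, 3 were called lower and 0 higher, of the 13 epiblast peaks 1 and 1, of the 21 mesoderm or streak peaks 1 and 1, and of the 24 neural peaks 0 and 1, where 3.79% of all peaks were called lower and 1.47% higher. The part of other cell types in the FGF results was not tested. No peak was assigned to Otx2, and the loss of the protein cannot be read from these files.

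Levels per group were computed from the deposited mean and fold change, because the table holds 1 mean per peak. Where the lower level of a named change was under 3 normalized counts per library, the difference is given as a lower bound against that floor.

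The secreted ligands had 40 peaks on 11 genes, with 1 call (2.56% of those tested, beside 5.26% of all). Their median log2 fold change in the authors' deposited table was 0.05. The call was at Fgf8, the streak ligand, whose distal peak 16795 bases downstream of the start (chr19:45725806-45725971) had 2.63 normalized counts in DMSO and 12.5 in dTAG13. In dTAG13 it was at least 4.17-fold higher, and the authors' deposited table gave a log2 fold change of 2.25 (SE 0.75) with adjusted p 0.0496. This call sits at the edge of the threshold: the adjusted p became 0.0505 without the filter on weak peaks. The other 8 Fgf8 peaks did not pass. Its promoter peak had 36.5 normalized counts in DMSO and 24.9 in dTAG13, and the 2 strong peaks downstream, of 46.3 and 55.3 normalized counts, were at 0.05 (SE 0.27) and 0.24 (SE 0.25) on the log2 fold change scale of the authors' deposited table. The peak that rose was thus weaker than these.

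Fgf5, a ligand that marks the epiblast, had 4 peaks, all in both groups' lists. Its promoter peak had 49.9 normalized counts in DMSO and 46.0 in dTAG13, and the log2 fold changes of the 4 peaks ran from -0.12 to 0.46 in the authors' deposited table. At Fgf10, a mesenchymal ligand of organ budding, 5 of 7 peaks were positive. The peak 40002 bases upstream (chr13:118629720-118629857) had 4.30 normalized counts in DMSO and 13.6 in dTAG13, for which the authors' deposited table gave a log2 fold change of 1.67 (SE 0.63) with adjusted p 0.0922, so it did not pass. With GC classes centred its adjusted p was 0.00365. The Fgf10 promoter peak had 36.6 and 49.5 normalized counts in DMSO and dTAG13. Fgf3, Fgf4 and Fgf15 lie beside each other on chromosome 7, and their 5 peaks had 4.58 to 11.6 normalized counts. The log2 fold changes there ran from -0.90 to 0.46 in the authors' deposited table, and none was called. Fgf2, which has 1 peak, was the weakest promoter of the set at 1.88 normalized counts.

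The intracellular FGFs, Fgf12, Fgf13 and Fgf14, bind sodium channels rather than FGF receptors. They had 17 peaks, of which 3 were called (17.6%, beside 5.26% of all peaks tested). All 3 belonged to Fgf12, in opposite directions. The peak with 2 copies of the OTX letters, 148738 bases downstream of the start, had 6.13 normalized counts in DMSO and 0.210 in dTAG13. It was at least 2.04-fold higher in DMSO, and the authors' deposited table gave a log2 fold change of -4.87 (SE 1.53) with adjusted p 0.0356. The nearest annotated start there is that of Gm49765, 72992 bases away. A peak 266465 bases downstream (chr16:27925528-27925691), in an exon of Gm10823, went the other way, from 4.79 normalized counts in DMSO to 19.96 in dTAG13. It was 4.17-fold higher in dTAG13, and the authors' deposited table gave a log2 fold change of 2.06 (SE 0.57) with adjusted p 0.0150. The third, chr16:28446319-28446519, lies 142 bases upstream of a Fgf12 start and rose from 2.65 to 14.6 normalized counts, at least 4.88-fold, and the authors' deposited table gave a log2 fold change of 2.47 (SE 0.72) with adjusted p 0.0212. Within this gene the called peaks were weak, and all 6 of its peaks stayed at or under 12.4 normalized counts. Fgf14 had 9 peaks and Fgf13 had 2, with no call.

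The receptors had 32 peaks on 4 genes, of which 25 (78.1%) were negative, with a median log2 fold change of -0.68 in the authors' deposited table, beside 58.2% and -0.18 for all peaks. With the median of all peaks moved to 0, 22 of the 32 were negative with a median of -0.50, with GC classes centred 21 with a median of -0.36, and with peaks in both lists centred 26 with a median of -0.77. For all peaks the negative shares were then 50%, 50% and 62.6%. The shares differ by peak class: as deposited, 64.2% of all intron peaks were negative with a median of -0.44. Of all distal intergenic peaks 63.0% were, with a median of -0.38, and of all promoter peaks to 1 kb 47.2%. The receptor peaks were not matched to other peaks by class or signal. Fgfr2, the gene with the most peaks of the set, held most of them: 16 of its 19 peaks were negative, 7 had less signal in dTAG13 at an unadjusted p under 0.05 and 0 had more. Of the 19, 11 overlapped the DMSO list alone and 7 both lists. The called peak, chr7:130211711-130211963 in intron 4 of Fgfr2, had 18.2 normalized counts in DMSO and 4.75 in dTAG13. It was 3.82-fold higher in DMSO, and the authors' deposited table gave a log2 fold change of -1.93 (SE 0.60) with adjusted p 0.0334. The call was lost when the median of all peaks was moved to 0 (adjusted p 0.0564) or when GC classes were centred (0.124).

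A pair of further Fgfr2 peaks missed the threshold narrowly. The inner promoter peak that holds the OTX letters, 20 bases from an annotated start, had 10.4 normalized counts in DMSO and 1.55 in dTAG13, at least 3.45-fold lower, for which the authors' deposited table gave a log2 fold change of -2.74 (SE 0.96) with adjusted p 0.0649. The peak chr7:130187162-130187327 in intron 7 had 10.2 and 1.54 normalized counts, at least 3.40-fold lower, for which the authors' deposited table gave a log2 fold change of -2.73 (SE 0.99) with adjusted p 0.0780. The main Fgfr2 promoter peak, at 42.0 normalized counts in DMSO and 31.3 in dTAG13, had a log2 fold change of -0.43 (SE 0.31) in the authors' deposited table. The negative count of Fgfr2 was 16, 17 and 13 of 19 with the median of all peaks, of peaks in both lists or of GC classes moved to 0. At Fgfr1, a receptor needed for mesoderm at gastrulation, a peak 1760 bases inside the gene (chr8:25521561-25521633) had 7.46 normalized counts in DMSO and 0.423 in dTAG13, at least 2.49-fold lower, with adjusted p 0.0600 by the authors' deposited table, while its promoter peak had 16.9 and 20.002 normalized counts. All 4 Fgfr4 peaks were negative as deposited, and 2 of 4 with the median of all peaks moved to 0. Fgfr3 had 3 negative and 2 positive peaks.

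**Figure D2:**
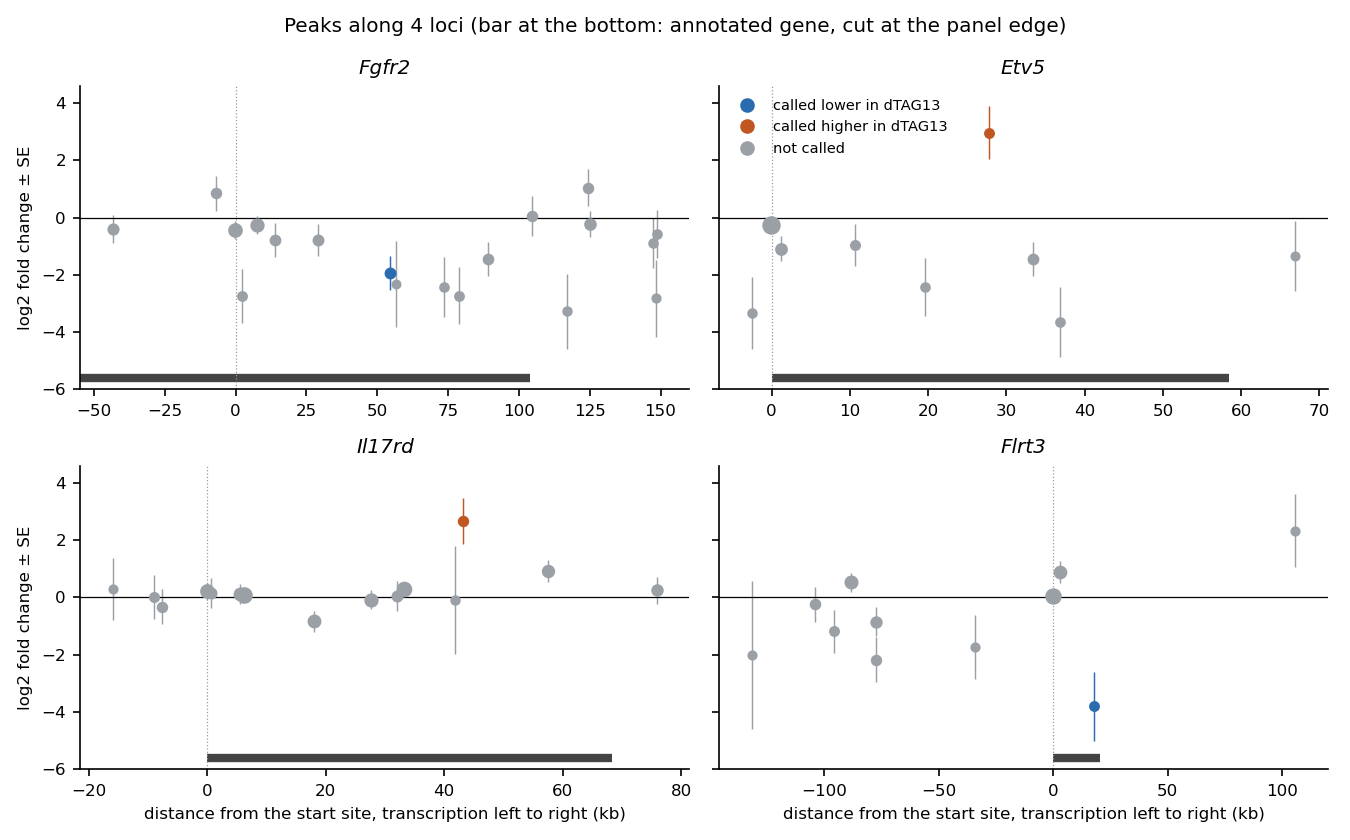
Log2 fold change with its standard error (vertical axis) of each peak against the distance from the gene's start in kb (horizontal axis, transcription left to right) at Fgfr2, Etv5, Il17rd and Flrt3, with point area growing with the mean normalized count, blue called lower, orange called higher and grey not called. At Fgfr2 16 of 19 peaks and at Etv5 8 of 9 lie under 0, at Il17rd 11 of 15 lie above 0, and the strong peak at each start lies near 0.

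The adaptors and exchange factors, Frs2, Frs3, Sos1 and Sos2, had 16 peaks with 1 call (6.25%, beside 5.26% of all peaks tested). Of the 16 peaks, 5 (31.2%) were negative, beside 58.2% of all peaks. Over the other centrings the negative share was 31.2% to 37.5%, beside 50% to 62.6% of all peaks. Frs2 is the docking protein under the receptor, and its upstream peak, 4018 bases from the start, had 8.18 normalized counts in DMSO and 0.210 in dTAG13. It was at least 2.73-fold higher in DMSO, and the authors' deposited table gave a log2 fold change of -5.28 (SE 1.40) with adjusted p 0.00974, the most negative log2 fold change of the 209. The Frs2 promoter peak nearby had 38.5 and 42.2 normalized counts in DMSO and dTAG13. At Sos1, a Ras exchange factor, the peak 41662 bases upstream had 4.99 normalized counts in DMSO and 0.209 in dTAG13, at least 1.66-fold lower, with adjusted p 0.0568 by the authors' deposited table; its nearest annotated start is that of AC131712.1. With the median of peaks in both lists moved to 0 it passed, at 0.0484. The levels of 0.210 and 0.209 are the lowest step that occurs in dTAG13: 2664 peaks of the table share it, from 0.197 to 0.215, and the next level is 0.406. Of these, 4 are FGF peaks, and 2 of the 4 were called. The called share among all 2664 peaks was not counted, so the 2 of 4 cannot be set against a background.

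The kinases Braf, Map2k1, Map2k2 and Mapk3 had 13 peaks with 1 call (7.69%, beside 5.26% of all peaks tested). Braf encodes a RAF kinase, and its peak 23460 bases upstream had 25.0 normalized counts in DMSO and 5.19 in dTAG13. It was 4.82-fold higher in DMSO, and the authors' deposited table gave a log2 fold change of -2.27 (SE 0.55) with adjusted p 0.00430, the smallest of the FGF peaks. This was the strongest of the 5 peaks that fell, at a mean of 15.1 normalized counts. The Braf promoter had 24.5 and 31.6 normalized counts in DMSO and dTAG13. The GC centring took the call away narrowly (adjusted p 0.0518). The promoter of Map2k2, which encodes a MEK kinase, was among the 3 strongest FGF peaks, with 85.0 normalized counts in DMSO and 76.0 in dTAG13.

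**Figure D3:**
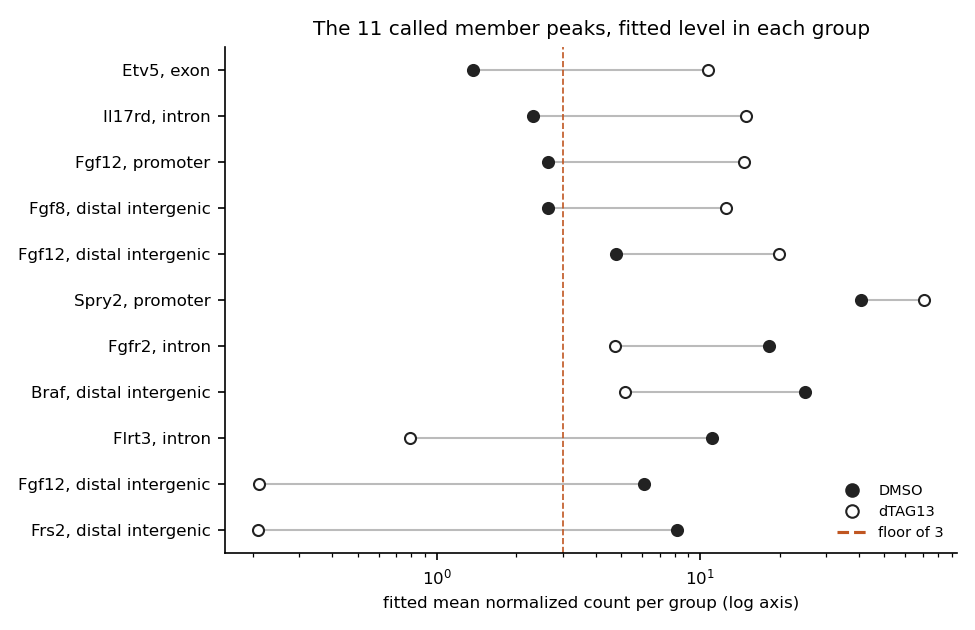
Level per group (normalized counts, log axis) computed from the authors' mean and fold change for the 11 called peaks, with filled points for DMSO, open points for dTAG13 and a dashed line at the floor of 3. In 7 of the 11 the lower level lies under the floor, and Spry2 alone has both levels above 40.

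The feedback inhibitors had 56 peaks on 9 genes, with 2 calls (3.57%, beside 5.26% of all peaks tested). Both were higher, as were 1.47% of all peaks tested. Spry2, an inhibitor of receptor signalling, had the call with the strongest signal: the promoter peak 553 bases upstream had 40.9 normalized counts in DMSO and 70.5 in dTAG13. It was 1.73-fold higher in dTAG13, and the authors' deposited table gave a log2 fold change of 0.79 (SE 0.23) with adjusted p 0.0253. Its change is under 1 on the log2 scale, so it is not in the authors' list of enriched peaks. The other 8 Spry2 peaks did not pass, and 6 of them were negative. A peak 85 bases away from it, chr14:105897046-105897168, had 22.4 normalized counts and a log2 fold change of -0.0033 (SE 0.37) in the authors' deposited table. With the median of peaks in both lists moved to 0, the adjusted p of the promoter peak was 0.0529.

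Il17rd, a membrane inhibitor of the receptors, had 15 peaks, 12 of them in both lists and 11 positive. Its peak in intron 2 rose from 2.32 normalized counts in DMSO to 14.9 in dTAG13, at least 4.97-fold, and the authors' deposited table gave a log2 fold change of 2.68 (SE 0.80) with adjusted p 0.0259. The strongest Il17rd peak, chr14:27044959-27045371, holds the OTX letters, unlike the called one, and had 60.7 and 64.7 normalized counts in DMSO and dTAG13. Over the centrings tried, 1 to 7 of the 15 peaks were negative. Dusp6, the cytosolic ERK phosphatase used as a readout of FGF signalling, had 5 peaks with log2 fold changes of -0.24 to 0.35 in the authors' deposited table. Its promoter peak had 75.3 normalized counts in DMSO and 69.7 in dTAG13. Spry1 had 1 peak, at its promoter, with 20.2 and 24.8 normalized counts. All 7 peaks of Spred2, which blocks activation of the RAF kinases, were negative with a median log2 fold change of -0.97, and none was called in the authors' deposited table. With the median of all peaks or of GC classes moved to 0, 6 of the 7 were negative. Dusp4 and Dusp5, nuclear ERK phosphatases, had 6 and 7 peaks with no call.

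The ETS factors had 21 peaks on 3 genes, of which 15 (71.4%) were negative as deposited, beside 58.2% of all peaks. With the median of all peaks or of GC classes moved to 0, 12 (57.1%) were negative, beside 50% of all peaks. Etv5, a transcriptional target of FGF, had 9 peaks: 8 were negative as deposited and under each of the 3 other centrings, and 5 had less signal in dTAG13 at an unadjusted p under 0.05. None of these 5 was called. The peak that holds the OTX letters, within the gene and in the authors' class of promoter peaks at 1 to 2 kb, had 9.54 normalized counts in DMSO and 0.760 in dTAG13, at least 3.18-fold lower, for which the authors' deposited table gave a log2 fold change of -3.65 (SE 1.24) with adjusted p 0.0554. With the peaks in both lists centred it passed, at 0.0461. A peak 2535 bases upstream of the start (chr16:22442221-22442287) had 8.03 and 0.789 normalized counts, at least 2.68-fold lower, with adjusted p 0.0914 by the authors' deposited table. The called Etv5 peak, in exon 7, went the opposite way, from 1.37 normalized counts in DMSO to 10.7 in dTAG13, at least 3.58-fold, and the authors' deposited table gave a log2 fold change of 2.97 (SE 0.92) with adjusted p 0.0334. The Etv5 promoter was the strongest FGF peak of all, with 102 normalized counts in DMSO and 86.1 in dTAG13 and a log2 fold change of -0.24 (SE 0.19) in the authors' deposited table. Etv1 and Etv4 had no call, and their promoters had 54.3 and 39.9 normalized counts in DMSO and 67.9 and 38.0 in dTAG13.

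The receptor-binding membrane proteins Flrt2 and Flrt3 had 14 peaks with 1 call (7.14%, beside 5.26% of all peaks tested). All 11 Flrt3 peaks lie inside Macrod2, a large gene in which Flrt3 is nested. The called peak, chr2:140653603-140653693, lies 17752 bases downstream of the Flrt3 start in intron 3 of Macrod2 and within the annotated extent of Flrt3 itself. It had 11.1 normalized counts in DMSO and 0.793 in dTAG13 and was at least 3.70-fold higher in DMSO, and the authors' deposited table gave a log2 fold change of -3.81 (SE 1.20) with adjusted p 0.0370. The GC centring gave 0.0743. The peak chr2:140748952-140749105, 77560 bases upstream, had 14.4 and 3.20 normalized counts, with adjusted p 0.0776 by the authors' deposited table. The promoter peak of Flrt3 had 59.8 normalized counts in DMSO and 61.6 in dTAG13.

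The authors' promoter class reaches 3 kb, and its peaks within 1 kb are taken first. Of 36 genes with such a peak, the strongest one was called at Spry2 alone, and 17 log2 fold changes were negative and 19 positive, with a median of 0.04 in the authors' deposited table. They ran from -2.05 at Fgf2 to 0.83 at Fgf13, both weak, and 28 of 36 were under 0.5 in size. For 15 of them the 95% interval from the deposited standard error lay within 1 log2 unit of 0, and for the others it reached beyond that. Over all 58 FGF promoter peaks 1 was called (1.72%), beside 2.15% of all promoter peaks called and 1.15% called higher. Elsewhere 10 of the 149 tested FGF peaks were called (6.71%), beside 6.67% of all. Over the whole promoter class to 3 kb all 40 genes had a peak, and the strongest was the same peak for 32 genes. There 2 of the 40 were called, at Spry2 and at Fgf12, whose peak is the one 142 bases from a start, and 31 were under 0.5 in size with a median of 0.04 in the authors' deposited table. Per 100 bases of peak, the strongest promoters were those of Etv1 (24.1 normalized counts), Spry2 (23.6), Etv5 (22.9), Dusp6 (20.3) and Flrt3 (20.2), and the weakest that of Fgf2 (2.57). Etv1 and Etv5 are ETS factors, Spry2 and Dusp6 are feedback inhibitors, and Flrt3 is a receptor-binding membrane protein. Other members of these classes, such as Etv4, Spry1, Dusp4, Dusp5 and Flrt2, were not among the strongest.

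**Figure D4:**
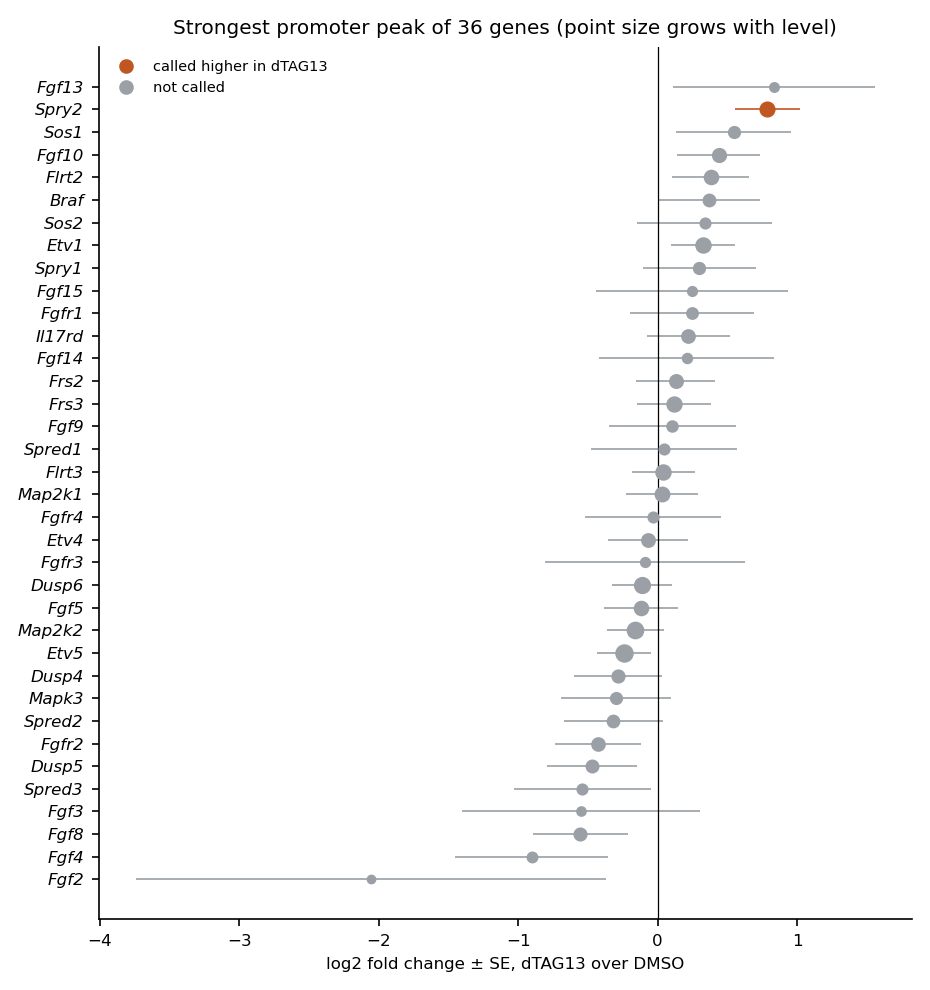
Log2 fold change with its standard error (horizontal axis, dTAG13 over DMSO) of the strongest promoter peak within 1 kb of 36 genes (vertical axis), with point size growing with the mean normalized count, orange for called higher and grey for not called. Spry2 is the single orange point, and 28 of the 36 lie within 0.5 of 0.

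Of the 56 FGF peaks with at least 20 normalized counts, 1 was called (1.79%), beside 5.25% of all peaks of that strength, and the difference between these shares was not tested. Their log2 fold changes ran from -0.84 to 0.92 in the authors' deposited table. Between 5 and 10 normalized counts 5 of 66 were called (7.58%), beside 5.14% of all, between 10 and 20 it was 3 of 45 (6.67%), beside 7.42%, and under 5 normalized counts 2 of 40 (5.00%), beside 4.01%. All 5 peaks that fell overlapped the DMSO list alone, had means of 3.17 to 15.1 normalized counts and 44.1% to 49.8% GC. Of the 6 that rose, 4 overlapped the dTAG13 list alone and 2, at Spry2 and Fgf12, both lists. Of all peaks, called or not, 40.1% overlapped the DMSO list alone and 11.8% the dTAG13 list alone. List overlap, level and GC were not taken for all called peaks. These traits of the called FGF peaks are thus not shown to be particular to them. Just outside the threshold, with adjusted p between 0.05 and 0.1 in the authors' deposited table, were 8 peaks of 6 genes, 7 lower and 1 higher. Under 0.1 lay 9.18% of the FGF peaks tested, beside 9.10% of all, so the FGF share was at the background. Among all peaks 4342 were lower and 1949 higher under 0.1, against 2622 and 1016 under 0.05. Lower peaks were thus the more numerous among all peaks too.

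**Figure D5:**
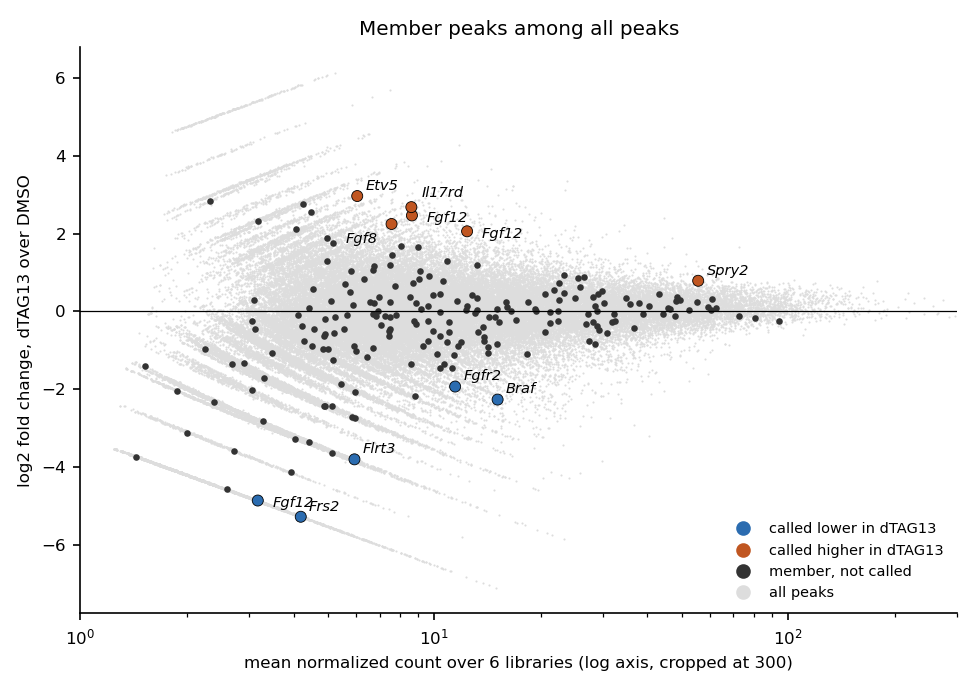
Log2 fold change (vertical axis, dTAG13 over DMSO) against the mean normalized count (horizontal axis, log scale) of the FGF peaks in dark or coloured points over all peaks in light grey. The spread narrows with the level, and the 56 FGF peaks of at least 20 normalized counts lie between -0.84 and 0.92.

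The OTX letters GGATTA or their reverse complement stood within 100 bases of the midpoint of 20 of 209 FGF peaks (9.57%), on 13 genes, and of 8.81% of all peaks. The reversed control ATTAGG was in 6.22% and 7.06%. Among the 20, 15 were negative (75%) with a median log2 fold change of -0.81 in the authors' deposited table, beside 82.7% and -1.32 for the 6209 peaks with these letters in all. For FGF peaks without them the values were 53.4% and -0.07, beside 55.8% and -0.12. A single peak, at Fgf12, was called lower (5.00%), where 15.1% of all peaks with the letters were. Of the 8 with at least 10 normalized counts, 4 were negative, with log2 fold changes of -0.84 to 0.46 in the authors' deposited table, and of the 12 weaker ones 11 were negative. The 8 include the strong Il17rd intron peak, both distal Fgf5 peaks and the Spred2 promoter peak. All peaks with the letters were not split by level. Among all peaks, with or without the letters, the median log2 fold change was -0.92 under 5 normalized counts and -0.16 from 5 to 10. It was -0.05 from 10 to 20 and 0.06 at 20 or more. The split by level is thus not shown to belong to the OTX letters.

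Repeats overlapped some of these letters. The assembly marks repeats by soft-masking, and in 3 of the 20 peaks, at Sos1, Etv5 and Flrt3, the OTX letters lie in soft-masked bases, or 15.0% beside 13.5% of all peaks with the letters. The Sos1 and Etv5 peaks whose sequences are given are 72.4% and 73.6% soft-masked, and the Flrt3 peak chr2:140803139-140803242 is wholly so. These 3 were negative, beside 84.1% of all peaks whose letters lie in soft-masked bases alone. Of the other 17, 12 were negative (70.6%), with a median log2 fold change of -0.46 in the authors' deposited table. For all peaks with unmasked letters the values were 82.5% and -1.29. How reads that match several copies were treated is not given in the sources used here, and its part in these values was not tested. Of all 209 FGF peaks, 7 (3.35%) are more than 50% soft-masked, beside 6.10% of all peaks.

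Within the same 100 bases, GATA letters AGATAA were in 15.3% of FGF peaks and 15.6% of all, SOX letters ACAATG in 11.5% and 10.2%, TEAD letters GGAATG in 10.05% and 11.5%, and FOX letters TGTTTAC in 7.66% and 5.33%. AP1 letters TGACTCA were in 5.74% and 4.45%, ETS letters CCGGAAG, bound by ETV factors among others, in 2.87% and 4.35%, POU letters ATTTGCAT in 2.39% and 1.21%, and T-box letters AGGTGTGA in 1.91% and 1.71%. Within 50 bases ETS letters were in 0.478% of FGF peaks and 2.63% of all, and POU letters in 0.478% and 0.657%, so that the order of the POU shares turned with the window. OTX letters were in 7.66% and 4.98%, and the reversed control in 3.35% and 3.65%. Of the FGF peaks called lower, 0 of 5 held OTX letters within 50 bases, beside 21.1% of all peaks called lower. The differences between these shares were not tested. A match is a description of letters, not of binding.

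The deposited table also marks genes as down or up in columns headed DEGdown and DEGup, which by name are marks of differentially expressed genes. The comparison behind the marks is not stated there. Of the 40 FGF genes with peaks, 2 were marked down (Fgf5 and Etv5; 5.00% beside 1.38% of all genes with peaks) and 4 up (Fgf8, Fgf10, Spry1 and Flrt3; 10% beside 1.60%). The called peaks did not all share the direction of the mark: the Fgf8 peak was higher at a gene marked up, the Flrt3 peak lower at a gene marked up and the Etv5 peak higher at a gene marked down. The shares of marked genes were not tested, and the FGF genes were not matched to other genes. The members were chosen with earlier results of these data known, and they had a median of 4 peaks per gene against 2. No expression values were used here.

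Other genes of the pathway were described from a separate list of 71 genes, 67 of them with peaks. Of their 291 peaks tested, 15 were called (5.15%, beside 5.26% of all), 10 lower and 5 higher, on 14 genes. The smallest adjusted p was at Myc, a growth regulator downstream of ERK, whose distal peak fell by 2.93 on the log2 scale by the authors' deposited table (adjusted p 0.00215, SE 0.67). Rps6ka2, an ERK-activated kinase, had 2 peaks that fell, and the dual-specificity phosphatases Dusp10 and Dusp1 had peaks that rose by 1.46 (SE 0.35) and 2.10 (SE 0.55) on the log2 scale in the authors' deposited table. Promoter peaks were lower at Lrig1, Plcg1 and Rasal2 and higher at Sulf1, a heparan sulfate editor.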

How the data were processed

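ATAC-seq was measured in 3 DMSO and 3 dTAG13 libraries, grouped by their labels. Per the submitters' processing notes the tools included fastp, Bowtie2, MACS2, featureCounts, HOMER 4.11 and ChIPseeker, with build mm10; their settings, the handling of duplicates and any shift of read ends are not given in the sources used here. Per the file headers, the authors' deposited table gives for each peak the mean normalized count over the 6 libraries (a signal, used as deposited), the log2 fold change of dTAG13 over DMSO, its standard error, a test score, a p-value and an adjusted p-value. The deposited score equals the fold change divided by its standard error within 8.72e-07, and a Benjamini-Hochberg adjustment over 69128 peaks gave the deposited adjusted p-values within 7.87e-06. The other 1366 peaks, of at most 1.87 normalized counts, have no adjusted p-value. Per the file headers, the deposited peak lists hold positions, 1 list per group.

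No values per library were used, so no test was refitted and the authors' calls were counted at an adjusted p under 0.05. Sequencing depth per library is unknown. Levels per group came from the mean and the fold change, for groups of equal size. The alternatives recomputed p-values by the normal test and adjusted them over all peaks. Sequences, GC and soft-masking came from GRCm38.p6 and start sites from GENCODE release M21. The 10 motifs include the reversed control. They were searched as exact letters within 100 bases of the midpoint, within 50 bases and over the whole peak. Python 3.11.15, numpy 2.4.6, pandas 2.3.3, scipy 1.17.1 and matplotlib 3.10.9 were used. Functions were tested on simulated data: for dTAG13 over DMSO on 69128 peaks, 200 of 200 planted changes were recovered and 8 other peaks were called. That recovery checks the functions only. It depends on the size of the planted changes and the strength of their peaks. It is thus no measure of how many changes would be found at weak peaks like those described here.

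The members, the lists and the motifs were chosen with earlier results of these data known. Named peaks were all called member peaks, the peak of smallest p and the strongest promoter peak of each gene (within 1 kb, and to 3 kb as a count), and the 3 strongest; others were chosen after their values were seen, among them those with an adjusted p between 0.05 and 0.1. Genes follow the authors' gene column, and 16 of the 209 peaks (7.66%) have the start of another gene nearest.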

Additional observations from a re-analysis of the deposited data

How the results depend on the processing

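No paired analysis was possible because the deposited table holds 1 mean and 1 fold change per peak; for the same reason, leaving out each library was not run. With GC classes centred, 1 FGF peak was lower and 11 were higher, against 5 and 6 as deposited. A minimum of 5 normalized counts left 3 lower peaks, since those of Frs2 and Fgf12 lie under it. At an adjusted p under 0.01, 2 were lower, 0 higher and 2 genes had a call (0.966% of FGF peaks, 1.75% of all), and at 0.1, 12 were lower and 7 higher (9.18% and 9.10%). Centring on all peaks gave 4 lower and 7 higher, centring on peaks in both lists 7 and 4, no filter 5 and 5, a log2 fold change of at least 1 in size 5 and 5, and assignment to the nearest start 4 and 5. Calls were lost at Fgf8, Fgf12, Fgfr2, Braf, Spry2 and Flrt3, and gained with GC classes centred at 5 peaks (2 of Fgf10, and Il17rd, Frs2 and Flrt3), with peaks in both lists at 2 (Etv5 and Sos1) and with all peaks at 1 (Il17rd). The Fgf12 OTX peak had an adjusted p of 0.103 with GC classes centred. For the other alternatives the cause was not tested. Of the 11 called peaks, 7 kept the call with GC classes centred, 9 with the peaks in both lists, 10 with all peaks and 10 without the filter. The median log2 fold change of FGF peaks was -0.10 as deposited, 0.08 with the median of all peaks (-0.18) moved to 0, -0.20 with that of the peaks in both lists (0.09) moved to 0 and -0.0033 with the minimum of 5. Within 50 bases in place of 100, the shares of the reversed control, ETS, TEAD, GATA, SOX, AP1 and POU letters fell below their counting interval. The narrower window lies inside the wider one, so that a share could not rise, and the fall is no measure of stability. The standard errors, with a median of 0.60 for FGF peaks, limit what can be seen at weak peaks.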

Other observations

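A few FGF peaks had standard errors far above those of peaks of like strength, and were picked after their values had been seen. The Dusp5 peak chr19:53511636-53511913, upstream of this ERK phosphatase gene, had 14.8 normalized counts and a standard error of 0.95 in the authors' deposited table, where the median standard error of FGF peaks between 10 and 20 normalized counts was 0.52. At Il17rd, chr14:27080741-27080839 had 4.13 normalized counts and a standard error of 1.89, and at Flrt3 the soft-masked peak chr2:140803139-140803242 had 3.05 normalized counts and a standard error of 2.58, where the median under 5 normalized counts was 1.14. None of the 3 was called, and the values per library behind them were not used here.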
